A study of Mus musculus with 6 samples.

Results

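The hypoxia factors and their target genes described here are 10 genes picked by name: Hif1a and Epas1, which encode oxygen-regulated transcription factor subunits, Egln1 and Egln3, which encode oxygen sensors, and the target genes Vegfa, Adm, Bnip3, Ndrg1, Ankrd37 and Ddit4. Of these 10 genes, 8 were measured among the 16472 genes of the authors' deposited table, and Epas1 and Egln3 were not analysed here. The set was put together because Adm, which encodes adrenomedullin, was among the most negative genes of the same comparison, so its own value is given as a description, and the authors' adjusted p-values are printed as deposited and not as new tests. HT22, the mouse hippocampal line studied, was given AA147 or DMSO vehicle and was collected after 16 h. The labels give the AA147 concentration as 10 mM, which may be a slip for a smaller unit and could not be checked here. Each group had 3 libraries and the labels do not say whether they came from separate cultures. AA147 is a small molecule known to activate ATF6, a sensor of the unfolded protein response, and NRF2, a regulator of antioxidant genes. The question put to the data was whether other hypoxia genes differed between AA147 and vehicle as Adm did.

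Cells sense oxygen through prolyl hydroxylases of the EGLN family, which mark the alpha subunits of the hypoxia-inducible factors (HIFs) for capture by the VHL ubiquitin ligase and destruction while oxygen is present. When oxygen falls, the alpha subunit escapes, pairs with ARNT and binds hypoxia response elements with the core ACGTG or GCGTG, which raises genes for blood vessel growth, glycolysis and mitochondrial turnover. HIF1A is controlled largely at the level of the protein, so its mRNA is a poor gauge of its activity. In neurons the pathway is known for its part in the response to ischaemia. Several of its targets answer other inputs too, among them Ddit4 and Vegfa, which are also known targets of the stress regulator ATF4.

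The hypoxia response core was looked for in the promoters of the members, as deposited in RefSeq for mouse assembly GRCm38.p6, from 250 bases before to 50 bases after each annotated start. The search covered ACGTG and GCGTG on both strands, and where ACGTG overlaps itself on both strands the 6 bases form CACGTG, the E-box bound by MYC, USF and CLOCK proteins. A window was found for 8 of the 10 members, with 9 windows in all because Vegfa has a pair of starts, and none was used for Epas1 and Ndrg1. At least 1 core lay in 8 of the 9 windows, 88.9%, against 43.8% of all 32851 promoter windows and 61.3% of the windows of genes that had an adjusted p. Those 8 include the window of the downstream Vegfa start, which is less certain than the others. The windows of the members were also rich in G and C, with a median of 69% against 52.7% over all windows, and both cores hold the pair CG. The stretches that hold the cores before the start are shown for the 6 measured members with such a core at their only start, so that the cores of Adm can be set beside those of the other members. Capitals mark the cores, each is written 5′ to 3′ along the strand of its gene, and a core on the opposite strand reads CACGT or CACGC.
Adm, chr7:110627555-110627619, plus strand, 102 to 38 bases before the start: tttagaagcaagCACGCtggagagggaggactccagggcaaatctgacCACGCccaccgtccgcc
Ankrd37, chr8:45999851-46000100, minus strand, 250 to 1 bases before the start: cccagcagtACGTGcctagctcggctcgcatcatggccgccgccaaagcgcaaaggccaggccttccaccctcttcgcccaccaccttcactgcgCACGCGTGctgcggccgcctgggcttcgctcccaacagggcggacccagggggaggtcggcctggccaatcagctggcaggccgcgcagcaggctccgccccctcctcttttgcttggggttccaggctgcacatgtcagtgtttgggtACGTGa
Bnip3, chr7:138909525-138909635, minus strand, 129 to 19 bases before the start: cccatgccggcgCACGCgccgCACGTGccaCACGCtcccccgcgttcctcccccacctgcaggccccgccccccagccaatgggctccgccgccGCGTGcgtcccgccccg
Ddit4, chr10:59951869-59951969, minus strand, 199 to 99 bases before the start: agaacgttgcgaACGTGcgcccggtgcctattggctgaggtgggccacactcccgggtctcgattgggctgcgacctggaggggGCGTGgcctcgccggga
Egln1, chr8:124949306-124949392, minus strand, 138 to 52 bases before the start: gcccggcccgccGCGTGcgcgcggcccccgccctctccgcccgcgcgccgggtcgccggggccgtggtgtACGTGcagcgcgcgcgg
Hif1a, chr12:73907720-73907813, plus strand, 147 to 54 bases before the start: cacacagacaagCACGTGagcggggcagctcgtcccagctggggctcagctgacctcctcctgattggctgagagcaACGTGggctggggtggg

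Number, letters and place of the cores varied among the members shown. Adm had 2 GCGTG cores, both on the opposite strand, beginning 90 and 54 bases before its start, and no ACGTG. Bnip3 had 5 matches, among them an E-box, and Hif1a had 3 with an E-box of its own. Ankrd37 had 4, one of them an ACGTG that begins 6 bases before the start. Ddit4 and Egln1 each had 1 ACGTG and 1 GCGTG. At Vegfa the window of the upstream start held 0 cores and that of the downstream start held 2. Bases just after the downstream start were found in no GENCODE M39 transcript of Vegfa, unlike those of every other member window. Elements outside these windows were not searched. Across the 9589 tested genes with a window, which also differ in base composition, those with a core had a median log2 fold change of 0.01 (6455 genes, 20.7% called) and those without had 0.02 (3134 genes, 22% called).

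The authors' deposited table holds 1 mean normalized count per gene over all 6 libraries, a log2 fold change with its standard error (SE) and an adjusted p, and no value for a single library. The numerator of the fold change is not named. Positive values are read as higher with AA147, because 12 of 14 NRF2 target genes were called positive and 0 negative in the authors' deposited table, with Nqo1, a quinone reductase, at 0.93 (SE 0.07). The sign of that list is therefore an assumption here and not a result. All directions below rest on that reading. A gene is called where the authors' adjusted p is under 0.05. This held for 20.2% of the 13597 genes with an adjusted p, 11.1% negative and 9.05% positive. The 95% intervals given below are the fold change with 1.96 SE on either side. Group averages were computed from the mean and the fold change, and carry no spread between libraries.

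Among the members, 1 of the 8 measured genes was called, which is 12.5% beside the background of 20.2%. That gene was Adm, and nothing is read from the count because the set was built around it. The other 7 had a median log2 fold change of -0.05 in the authors' deposited table, from -0.65 for Ankrd37 to 0.02 for Vegfa. Their 95% intervals all lay above that of Adm. Nothing is read from this either, because Adm was picked as one of the most negative genes and most genes lie above it. For 5 of the 7 the interval stayed within 0.5 of no change on the log2 scale, and for 6 within 1. The SE of each member was between 0.89 and 1.08 times the median SE of the 500 genes nearest to it in mean.

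**Figure D1:**
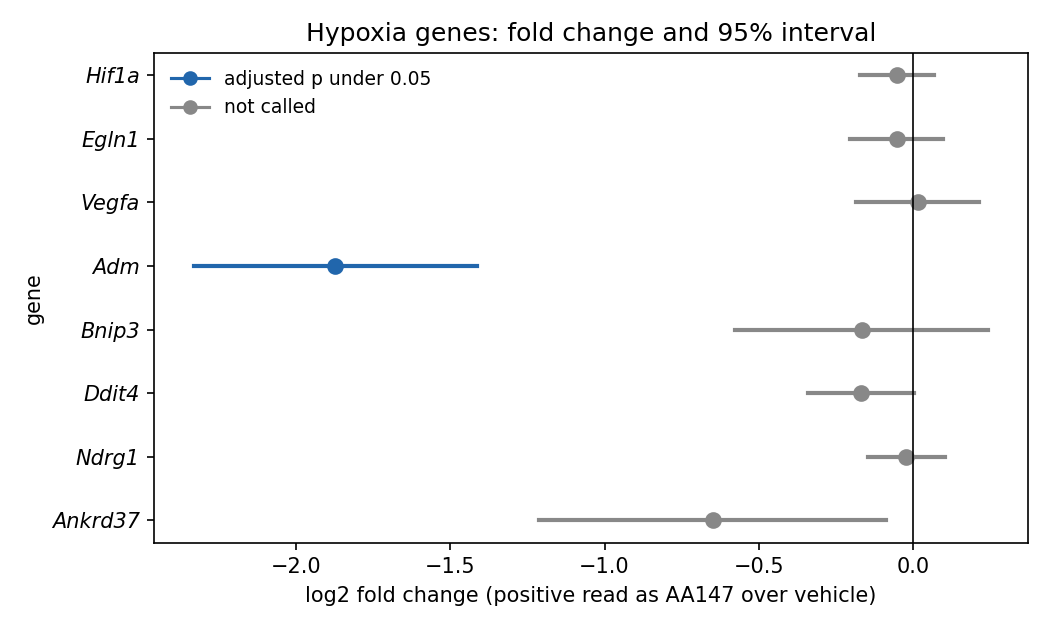
Log2 fold change of the 8 measured members (x axis, positive read as AA147 over vehicle) by gene (y axis), with points for the deposited value and lines for the 95% interval of 1.96 SE on either side. Adm lies at -1.87 with an interval from -2.33 to -1.41, and the other 7 intervals lie to its right.

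Adm encodes the precursor of adrenomedullin, a secreted peptide that widens blood vessels and is a standard marker of HIF activity. Its mean was 106 normalized counts in the authors' deposited table, from which group averages of 167 with vehicle and 45.5 with AA147 follow. The log2 fold change in the authors' deposited table was -1.87 (SE 0.23, DESeq2 adjusted p 7.61e-14), which is 3.66-fold lower with AA147. Ranked among the 10633 genes whose mean reached 100, Adm was in place 7 from the most negative, and among all 16472 genes in place 220. Its mean passed that limit only through vehicle, since the AA147 average of 45.5 lay below 100. The low rank is also what the set was built on, so it is a description. In GENCODE M39, 520 exon bases of Adm are shared with the opposite-strand gene Gm72687, which was not analysed here, and libraries without strand cannot tell reads of such a pair apart.

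**Figure D2:**
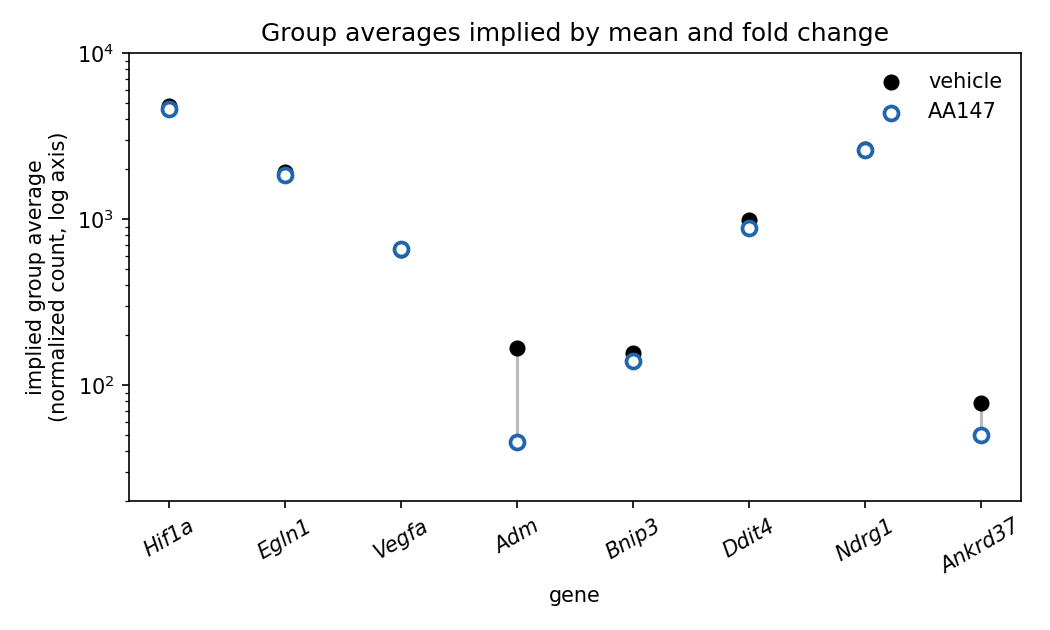
Group averages in normalized counts (y axis, log scale) for each measured member (x axis), computed from the deposited mean and fold change, with filled points for vehicle and open points for AA147. The pair of points is far apart for Adm, at 167 and 45.5, and nearly coincides for Vegfa, at 654 and 661.

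Vegfa, the other secreted factor of the set and the main growth signal for blood vessels, had a mean of 657 in the authors' deposited table and group averages of 654 with vehicle and 661 with AA147. Its log2 fold change in the authors' deposited table was 0.02 (SE 0.10, adjusted p 0.946), with an interval from -0.18 to 0.22. At this precision an absolute change of 0.26 would have been called. The value of Adm lies far below that interval. Nothing is read from this, because Adm was picked as one of the most negative genes.

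The factor and its sensor had values close to no change. Hif1a, the alpha subunit of HIF-1, had group averages of 4792 with vehicle and 4626 with AA147, and a log2 fold change of -0.05 in the authors' deposited table (SE 0.06, adjusted p 0.634). Egln1 encodes PHD2, the main hydroxylase of HIF alpha subunits. Its group averages were 1916 with vehicle and 1848 with AA147, and its log2 fold change in the authors' deposited table was -0.05 (SE 0.08, adjusted p 0.714). The intervals ran from -0.17 to 0.07 for Hif1a and from -0.20 to 0.10 for Egln1. The HIF1A protein was not measured.

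The members that act inside the cell on mitochondria and growth had small negative values and were not called. Bnip3 encodes a mitochondrial receptor for mitophagy, the removal of mitochondria by autophagy. Its group averages were 158 with vehicle and 140 with AA147, with a log2 fold change of -0.17 in the authors' deposited table (SE 0.21, adjusted p 0.653). Its mean of 149 was low and its interval, from -0.58 to 0.24, among the 3 widest of the set. Ddit4 encodes REDD1, an inhibitor of mTORC1 signalling. Its group averages were 987 with vehicle and 879 with AA147, and its log2 fold change in the authors' deposited table was -0.17 (SE 0.09, adjusted p 0.18). The interval for Ddit4 ran from -0.34 to 0.01, and a change of 0.23 would have been called.

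Ndrg1 and Ankrd37 were the remaining targets. Ndrg1, a stress-responsive gene and a common marker of hypoxia, had group averages of 2647 with vehicle and 2610 with AA147 and a log2 fold change of -0.02 in the authors' deposited table (SE 0.06, adjusted p 0.88). Ankrd37 encodes an ankyrin repeat protein and is a direct HIF-1 target. It came nearest to Adm in direction and size, with group averages of 78.4 with vehicle and 50 with AA147 and a log2 fold change of -0.65 in the authors' deposited table (SE 0.29, adjusted p 0.0951). Its unadjusted p was 0.0236 in the authors' deposited table, its interval ran from -1.21 to -0.09, and with a mean of 64.2 only an absolute change of 0.74 would have been called. The value of Ankrd37 is uncertain for a further reason, since its exons share 1156 bases with the opposite-strand gene Ufsp2. Ufsp2 had a mean of 1617 and a log2 fold change of 0.10 in the authors' deposited table (SE 0.08, adjusted p 0.419). How many of the reads counted for Ankrd37 came from Ufsp2 was not tested. In all, 7 of the 8 measured members shared exon bases with a gene on the other strand in GENCODE M39, the exception being Ddit4, and none had a near-identical transcript elsewhere.

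**Figure D3:**
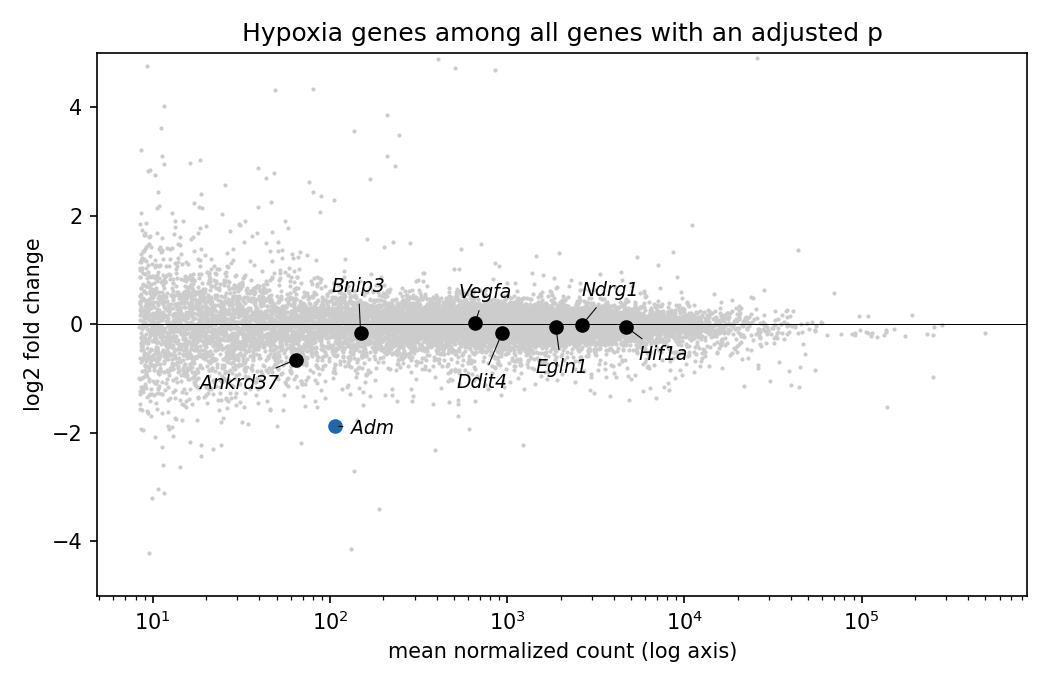
Log2 fold change (y axis) against mean normalized count (x axis, log scale) for the 13597 genes with an adjusted p in grey, with the 8 measured members named, Adm in blue and the others in black. The axis stops at 5 on either side and leaves out 6 genes, and the members other than Adm lie within the grey band of genes with a similar mean.

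Levels differed widely among the members when the mean was divided by the length of the canonical GENCODE transcript. Ndrg1 stood highest at 821 normalized counts per kilobase, followed by Hif1a at 688, Ddit4 at 530, Egln1 at 426 and Vegfa at 190. Adm at 75.8, Ankrd37 at 69.2 and Bnip3 at 40.8 normalized counts per kilobase were the lowest. The spread of these levels between libraries is not known, so neighbours such as Adm and Ankrd37 cannot be ordered with an error. The 3 lowest members were also those with the widest intervals.

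A wider list of the pathway, sorted by role, held 79 genes with the members among them. Of these, 66 had an adjusted p in the authors' deposited table, and 12 were called negative and 10 positive, with a median log2 fold change of -0.04 beside 0.01 over all genes. Without the members, 11 of 58 genes were called negative and 10 positive, 36.2% in all beside the background of 20.2%, and their median was -0.01. Calls went both ways in nearly equal number. Of the 69 pathway genes searched, 18 had a near-identical transcript of another gene in the annotation, which makes their values less certain. The background was 23.8% among genes with a mean of at least 100, since more abundant genes have smaller errors.

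**Figure D4:**
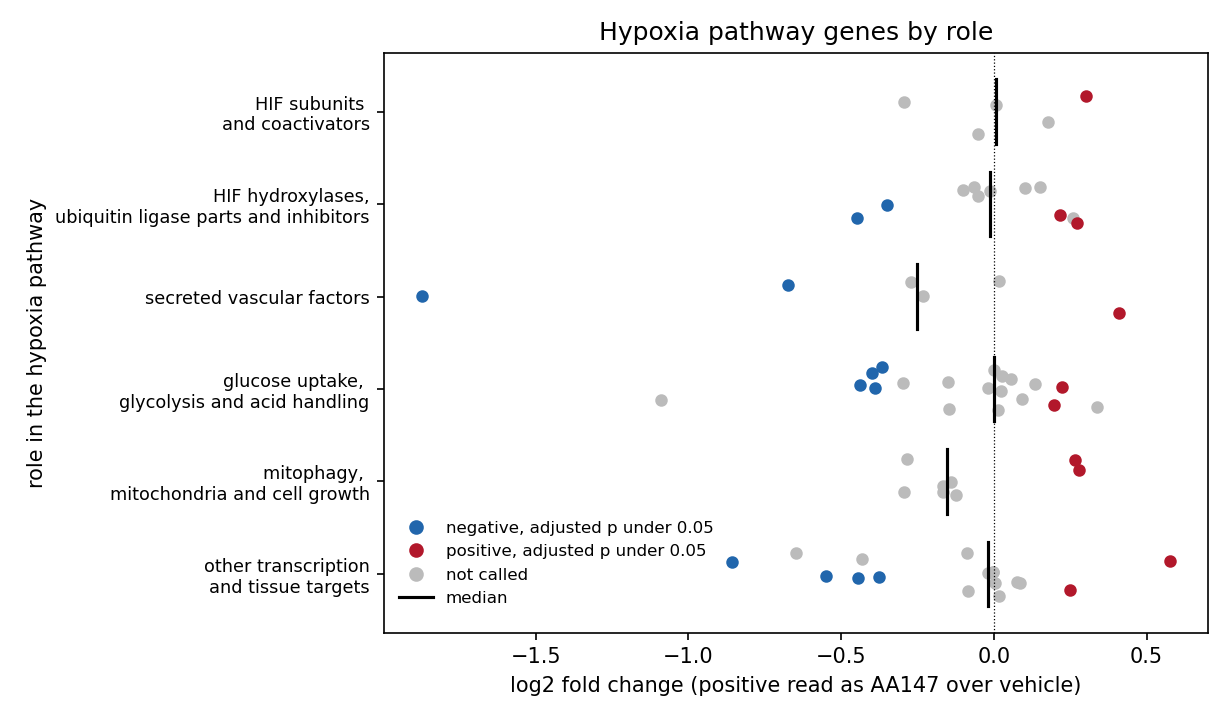
Log2 fold change (x axis, positive read as AA147 over vehicle) of the pathway genes with an adjusted p, in 6 rows by role (y axis, points spread within a row for sight), with blue and red points for negative and positive calls, grey points for genes not called and a black bar for the median of the row. Adm stands alone at the left at -1.87, and calls lie on both sides of 0 in 4 of the 6 rows.

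Among the HIF subunits and coactivators, 1 of 5 tested genes was called, 20% beside the background of 20.2%. Crebbp, which encodes the coactivator CBP, rose with a log2 fold change of 0.30 in the authors' deposited table (SE 0.08, adjusted p 0.00192). Its relative Ep300 had 0.18, the HIF beta subunit Arnt 0.01 and Arnt2 -0.29 in the authors' deposited table, none of them called. Hif3a, the remaining alpha subunit, was not analysed here.

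Of the 11 tested hydroxylases, ligase parts and inhibitors, 2 were called negative and 2 positive, all by less than 0.5 on the log2 scale. That is 36.4% called beside the background of 20.2%. The elongin subunits of the VHL ligase went opposite ways in the authors' deposited table, Elob, listed as Tceb2, at -0.45 and Eloc, listed as Tceb1, at 0.27 (adjusted p 1.51e-05 and 0.0144). Elob has 6 near-identical copies in the annotation, so its value is less certain. Siah2, a ubiquitin ligase for the EGLN enzymes, fell by 0.35 in the authors' deposited table (SE 0.10, adjusted p 0.00453). Cited2, which competes with HIF alpha subunits for CBP and is itself a HIF target, rose by 0.22 in the authors' deposited table (SE 0.06, adjusted p 0.00366). Egln2 at -0.01, Vhl at -0.10, Cul2 at 0.10, Rbx1 at -0.06, Siah1a at 0.15 and the asparaginyl hydroxylase gene Hif1an at 0.26 were not called in the authors' deposited table.

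The secreted vascular factors had a median of -0.25 over 6 tested genes with Adm among them, and of -0.23 over the other 5. Beside Adm, Angptl4, an inhibitor of lipoprotein lipase that is also a target of PPAR receptors, fell by 0.67 in the authors' deposited table (SE 0.08, adjusted p 6.63e-15). Edn1 at -0.23 and Stc2 at -0.27 were not called in the authors' deposited table, and Stc1, Igfbp3, Pgf and Epo were not analysed here.

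Glucose uptake and glycolysis genes were called in 6 of 19 cases, 4 negative and 2 positive, with a median of 0.00. That is 31.6% called beside the background of 20.2%. Pdk1, a kinase that inhibits pyruvate dehydrogenase, fell by 0.44 (SE 0.09), Ldha, lactate dehydrogenase A, by 0.40 (SE 0.06) and Pfkp, a phosphofructokinase, by 0.39 (SE 0.08) in the authors' deposited table. Hk1, a hexokinase that most cells express regardless of oxygen, rose by 0.22 (SE 0.06) and Gpi1, the next enzyme, by 0.20 (SE 0.06) in the authors' deposited table. The glucose transporter gene Slc2a1, a further standard HIF target chosen after its values were seen, had 0.06 in the authors' deposited table (SE 0.07, adjusted p 0.623). Car9, chosen likewise, had the most negative value of this list, -1.09 in the authors' deposited table, and was not called. With a mean of only 10.2, its interval ran from -2.47 to 0.29. Ldha has 10 near-identical copies in the annotation, and Gpi1 and Pfkp have 1 each. Pfkp also shares 1831 exon bases with the opposite-strand gene Pitrm1, so the values of Ldha, Gpi1 and Pfkp are less certain. Slc2a3 and Car12 were not analysed here.

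Of the genes for mitophagy, mitochondria and growth, 0 of 8 were called negative and 2 positive, 25% in all beside the background of 20.2%. Mxi1, a MYC antagonist, rose by 0.28 (SE 0.11, adjusted p 0.0441) and the mitochondrial protease gene Lonp1 by 0.27 in the authors' deposited table (SE 0.06, adjusted p 2.32e-04). Among the 17 remaining targets, 4 were called negative and 2 positive, 35.3% in all beside the same background. Lox, the collagen cross-linking enzyme, fell by 0.86 (SE 0.06, adjusted p 1.52e-45), Zfp395, a zinc finger protein, by 0.55 (SE 0.12) and P4ha1, a collagen prolyl hydroxylase, by 0.44 (SE 0.05) in the authors' deposited table. Tfrc, the transferrin receptor, whose mRNA is also set by iron, rose by 0.58 (SE 0.07, adjusted p 1.99e-14) and the histone demethylase gene Kdm3a by 0.25 (SE 0.07) in the authors' deposited table. Loxl2 was not analysed here.

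Lox and P4ha1 act on collagen, and most measured markers of mesenchymal cells were called lower in the same comparison. Of 8 such markers in the authors' deposited table, 6 were called negative and 0 positive, beside 11.1% negative and 9.05% positive over all genes. Vim at -0.08 and Thy1 at -0.03 were not called. The implied sum of the 8 markers, mostly Col1a1 and Col1a2, was 765286 normalized counts with vehicle and 424224 with AA147. Col1a1 had implied averages of 206337 with vehicle and 72014 with AA147, and Col1a2 had 336475 and 171534. Vim, also a large part of the sum, had 157068 and 148544, so the lower sum mainly reflects these collagen genes. Their part in the values of the hypoxia genes was not tested. Neuronal identity was thinly supported by its markers. Of 17 neuronal markers, 12 were not analysed here, Rbfox3 and Map2 among them, and of the 5 measured only Tubb3 and Syn1 had a mean of at least 100. Tubb3, a neuronal tubulin, rose by 0.43 in the authors' deposited table (SE 0.09, adjusted p 5.67e-05), and Syn1, a synaptic vesicle protein, had 0.13 (SE 0.13, adjusted p 0.558). Stmn2 at -1.53, Slc17a7 at -1.98 and Camk2a at -0.44 had the other sign in the authors' deposited table. Their means were at most 10.6 and none was called. The implied sum of the 5 measured neuronal markers, mostly Tubb3 and Syn1, was 1587 normalized counts with vehicle and 1976 with AA147. The part of neuronal markers in the values of the hypoxia genes was not tested either. Fewer expressing cells and less RNA per cell cannot be told apart in such bulk libraries.

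The genes that make and receive adrenomedullin were examined after their values were seen. Pam, the enzyme that amidates the peptide into its active form, fell by 0.37 in the authors' deposited table (SE 0.06, adjusted p 7.21e-10). The receptor gene Calcrl had 0.01 (SE 0.15, adjusted p 0.982), with a mean of 318, and the atypical receptor gene Ackr3 had -0.02 (SE 0.10) in the authors' deposited table. Ramp3, whose product joins that of Calcrl in a receptor for adrenomedullin, had a mean of only 11.3 normalized counts in the authors' deposited table, and Ramp1 and Ramp2 were not analysed here.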

How the data were processed

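RNA-seq of 6 HT22 libraries was used, 3 with AA147 and 3 with vehicle at 16 h, made as non-stranded mRNA libraries per the labels' protocols. DESeq2 and the build mm9 are named in the submitters' processing notes, and the aligner, counter, annotation and filters are not given in the sources used here. The authors deposited, per the file headers, a mean normalized count (a signal averaged over the libraries), a log2 fold change with its standard error, a test statistic (a score equal to their ratio), and p-values before and after adjustment. The 2875 genes without an adjusted p had means of at most 8.41 and stayed without a call. Depth per library is unknown.

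The members and gene lists were chosen with earlier results of these data known. No test between libraries was run, since only 1 line per gene was analysed. Named were all members, all HIF subunits and regulators, and in each other list up to 3 called genes in each direction. Any other gene was chosen after its values were seen. The value of 1 called gene under this rule is not reported here. From the table, group averages, 95% intervals, ranks and the smallest change that would be called (2.58 SE) were computed. The list symbols were matched as deposited, 3 by an older symbol in the RefSeq table of GRCm38.p6. Lengths and shared exons came from GENCODE M39 on GRCm39, and near-identical transcripts (at least 90% identity over 30% of the length) from BLAST 2.17.0. Promoters came from the RefSeq table of GRCm38.p6, which is not the build of the counts. Alternatives were a threshold of 0.01, adjustment over all genes with a p, a fold limit of 0.5, and centring on abundant or reference genes. The code was tested on simulated data. Python 3.11.15, pandas 2.3.3, SciPy 1.17.1 and matplotlib 3.10.9 were used.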

Additional observations from a re-analysis of the deposited data

How the results depend on the processing

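The call of Adm and the absence of other calls among the 8 measured members stood under all 5 alternatives. These changed the threshold, adjustment, fold limit or centre, and each gave 1 negative and 0 positive calls. That outcome was nearly fixed beforehand. The stricter threshold, wider adjustment and fold limit left fewer calls over all genes, and the centrings shifted members by about 0.01. The 16 fold changes of members under centring on abundant or on reference genes kept their sign and their side of the threshold, with a largest shift of 0.01. Calls among the 66 tested pathway genes were 12 to 13 negative and 8 to 10 positive, except with a log2 fold limit of 0.5. The background was 13.4% at a threshold of 0.01, 16% with adjustment over all genes and 19.9% with either centring. The fold limit left 4 negative and 1 positive, and 3 and 1 without the members, fewer by its construction and beside a background of 5.85%. Searching ACGTG alone gave 47.1% of the pathway windows against 77.6% with both cores, and 19.6% against 43.8% of all windows. Leaving out the bases after the start gave 38.6% of all windows.

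No paired analysis was possible because the deposited values are 1 line per gene, with nothing for a single library. Leaving out each replicate and other normalizations were not run for the same reason. The depth limits Adm, Bnip3 and Ankrd37 most, with means from 64.2 to 149.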
